A study of Mus musculus with 15 samples.

Results

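The 10 genes described here, from the metabolism of NAD and nicotinamide in mouse liver, were followed by every probe set that an annotation of the array assigned to one of them alone. They are Nampt, Nmnat1, Nmnat3, Nadsyn1 and Qprt, which make NAD, Sirt1 and Sirt3, which use it, and Nnmt, Aox1 and Aox3, which clear nicotinamide. The 10 genes had 15 of the 45101 probe sets, and 18193 genes were represented in all.

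NAD carries electrons between metabolic reactions and is split by sirtuins and PARP enzymes, which release nicotinamide. Liver rebuilds NAD from nicotinamide in the salvage route, from nicotinic acid in the Preiss-Handler route, and from tryptophan by way of kynurenine and quinolinic acid. Surplus nicotinamide is methylated by NNMT and then oxidised to pyridones by aldehyde oxidases. Coffee contains trigonelline, a methylated nicotinic acid, and of the powders used in the study the green one held the most.

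RNA of the liver of 15 male C57BL/6J mice was measured on Affymetrix GeneChip arrays of the mouse genome, with 1 array per mouse and 3 mice in each of 5 groups. Feeding began at 7 weeks of age and lasted 9 weeks. The HFCC, HFDC and HFGC groups received a diet in which fat gave 60% of the energy, with 2% of freeze-dried coffee powder added, which was caffeinated in HFCC, decaffeinated in HFDC and green, that is caffeinated and unroasted, in HFGC. The HF group received the 60% fat diet without coffee, and in the diet of the ND group fat gave 10% of the energy. All 5 groups were of 1 inbred strain, which becomes obese on a high-fat diet and carries a truncated gene for the transhydrogenase Nnt.

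Values are log2 of the deposited intensities, normalized by the authors with robust multi-array averaging (RMA). Each probe set was tested with limma in 1 model over all 15 arrays, with Benjamini-Hochberg adjustment over 45037 probe sets and calls at an adjusted p under 0.05. A log2 difference of 1 is a doubling. Precision is limited by the number of arrays, since an exact permutation test of 3 against 3 (two-sided) cannot go below p = 0.1. These RMA values carry no detection call, so a low value is not read here as absence. Levels of different probe sets cannot be set against each other, and probe sets of 1 gene share its transcript.

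The arrays carried strong signal of hepatocyte markers, whose summed intensity over 6 genes was 96616 to 109139 on every array. The adipocyte markers measured (Adipoq, Lep and Retn) summed to 83.2 to 104 and did not separate the groups. The summed stellate cell markers were higher in the HF arrays (1993 to 2353) than in the ND arrays (1368 to 1780). Reln and Col3a1, with median intensities of 1032 and 370, weigh most in this sum. Their mean log2 levels were higher in HF, as were those of Col1a2 and Lrat. Des (6.71 in HF, 6.70 in ND) and Col1a1 (5.44 and 5.48) were nearly level. Whether stellate cell RNA had a part in the differences between HF and ND was not tested. The 3' minus 5' value, the log2 excess of 3' over 5' signal of the Gapdh and Actb control probe sets, rises with RNA degradation. It was 1.08, 1.40 and 1.17 on HF replicates 1, 2 and 3 and 0.697 to 1.07 on the other 12 arrays, so the HF group holds the 3 highest values. In whole tissue, fewer cells of a type and less RNA per cell cannot be told apart.

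Among the 10 genes, the aldehyde oxidases Aox1 and Aox3 and the mitochondrial sirtuin Sirt3 rose in HF livers against ND livers, and Sirt1 fell. The calls covered 4 of the 15 probe sets (3 higher and 1 lower), against 10.3% of all probe sets tested (5.98% higher and 4.32% lower). Dim probe sets are part of that share. When only the 22519 probe sets at or above the median level were fitted, 4148 were called. Of these genes, 13 probe sets stood there, and 4 were called. In the coffee groups, Aox1 and Aox3 stood above ND and were not called against HF, while Sirt1 was higher than in HF when the 3 coffee groups were pooled. That was 1 call among the 15, against 7.24% of all probe sets. It was lost without HF replicate 2 and again without HF replicate 3. No probe set of the 5 genes of NAD synthesis, and not that of Nnmt, was called in any of the 9 comparisons.

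**Figure D1:**
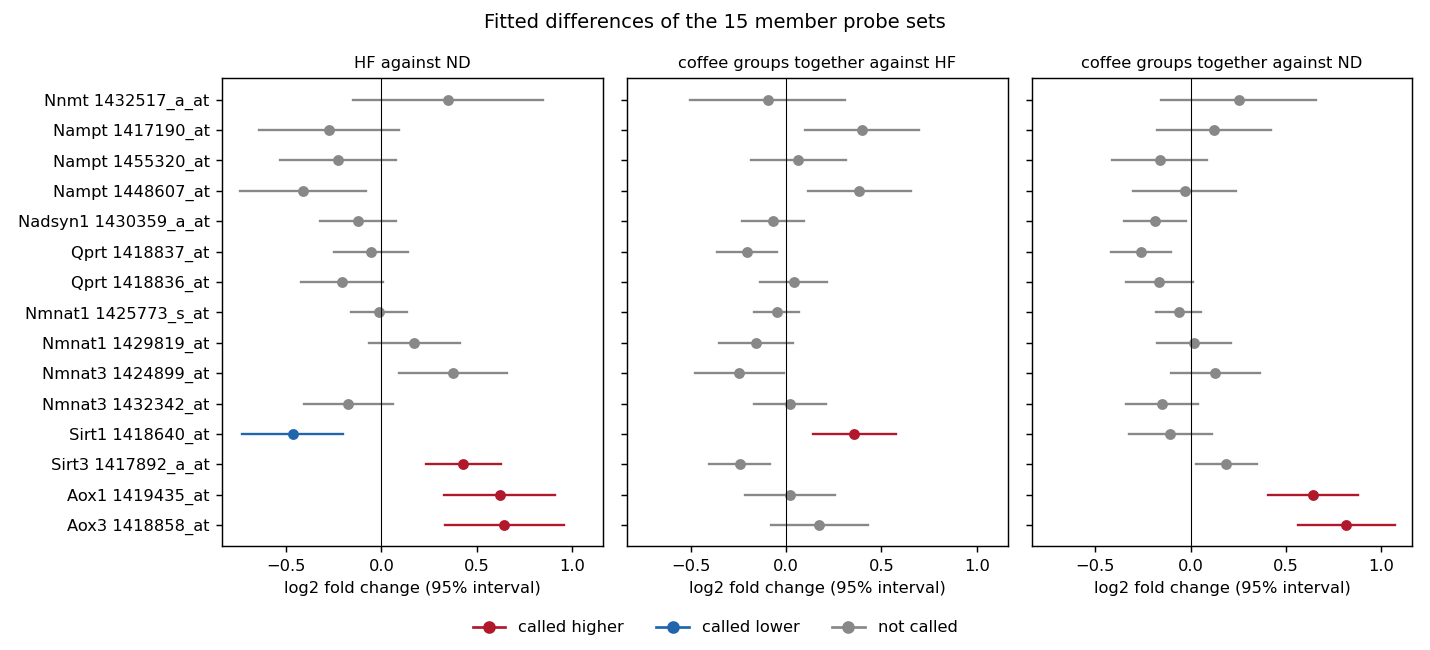
Fitted log2 fold change (x axis) of each of the 15 probe sets of the 10 genes (rows), with its 95% interval as a line, for HF against ND, the coffee groups together against HF, and the coffee groups together against ND. Called probe sets are coloured: Aox1, Aox3 and Sirt3 lie right of 0 and Sirt1 left of 0 for HF against ND, Sirt1 lies right of 0 for coffee against HF, and Aox1 and Aox3 right of 0 for coffee against ND.

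Aldehyde oxidases are molybdenum-containing flavoenzymes of the liver cytosol that oxidise N-methylnicotinamide, aldehydes and many drugs. Aox1 and Aox3 lie next to each other on chromosome 1 of the mouse, at 58029809 to 58106410 and 58113135 to 58202221 (GRCm38.p6, both on the plus strand). The 250 bases before a start site of each are shown because the levels of this neighbouring pair moved together, with matches to any of 5 motifs in capitals. They come from RefSeq (GRCm38.p6), and 9 of the 10 genes had an entry there. The windows are chr1:58029719-58029968 (plus strand) for Aox1 and chr1:58112886-58113135 (plus strand) for Aox3, and another RefSeq model of Aox1 starts inside its window.
Aox1: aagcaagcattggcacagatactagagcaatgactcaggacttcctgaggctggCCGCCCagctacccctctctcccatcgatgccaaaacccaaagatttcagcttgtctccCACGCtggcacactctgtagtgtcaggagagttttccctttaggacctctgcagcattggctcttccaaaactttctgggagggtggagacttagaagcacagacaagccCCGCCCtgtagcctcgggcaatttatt
Aox3: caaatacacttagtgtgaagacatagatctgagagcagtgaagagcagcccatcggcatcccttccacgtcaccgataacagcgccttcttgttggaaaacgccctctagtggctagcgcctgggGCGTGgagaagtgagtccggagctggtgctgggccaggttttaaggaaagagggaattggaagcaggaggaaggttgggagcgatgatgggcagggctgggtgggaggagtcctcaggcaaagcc
The motifs, searched on both strands, were the GC box GGGCGG, the TATA box TATAAA, the E-box CACGTG, the core of the antioxidant response element TGACNNNGC and the core of the xenobiotic response element GCGTG. The Aox1 window held 2 matches to the GC box and 1 to the xenobiotic core, and the Aox3 window 1 match to the xenobiotic core alone. Over all 32851 windows of this length, 32.7% held a GC box, 28.2% the xenobiotic core, 12.4% a TATA box, 10.2% the antioxidant core and 6.02% an E-box. These matches describe the letters, and no binding was measured.

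Aox1 (probe set 1419435_at) had log2 intensities of 10.07, 10.20 and 10.35 in HF livers, against 9.60, 9.60 and 9.56 in ND livers. The HF arrays lay above the ND arrays without overlap, and the ND arrays were nearly level. Aox1 was 0.62 higher in HF than in ND on the log2 scale, or 1.54-fold (standard error 0.14, adjusted p = 0.0128 from limma, n = 3 each). In the coffee groups it was 9.94, 10.55 and 10.11 with HFCC, 10.23, 10.17 and 10.49 with HFDC, and 10.00, 10.34 and 10.20 with HFGC. All 9 coffee arrays were above every ND array and overlapped with the HF arrays. The coffee groups together were 0.64 above ND, or 1.56-fold (standard error 0.11, adjusted p = 0.00744), and 0.02 above HF (95% interval from -0.22 to 0.26, adjusted p = 0.94).

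Aox3 (1418858_at), the other aldehyde oxidase of mouse liver, had log2 intensities of 12.20, 11.82 and 12.13 in HF livers, against 11.26, 11.53 and 11.42 in ND livers. Again the groups did not overlap, and the difference was 0.64 or 1.56-fold (standard error 0.15, adjusted p = 0.0149 from limma). It was at 11.77, 12.23 and 12.35 with HFCC, 12.18, 12.60 and 12.51 with HFDC, and 12.09, 12.22 and 12.04 with HFGC. The decaffeinated group had the highest mean, 12.43 ± 0.22 (SD, n = 3), and all 9 coffee arrays were above the ND arrays. The coffee groups together were 0.82 above ND, or 1.76-fold (standard error 0.12, adjusted p = 0.00287). Against HF they were 0.17 higher (95% interval from -0.08 to 0.43, adjusted p = 0.44), and HFDC alone was 0.38 higher (standard error 0.15, adjusted p = 0.16).

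For coffee against ND, both called probe sets among the 15 rose and none fell, against 3.15% of all probe sets called (1.58% higher and 1.57% lower). Arrays of 3 of the 15 did not overlap between the coffee groups and ND, against 4.99% of all probe sets. These were Aox1, Aox3 and Qprt. Both aldehyde oxidases kept their calls for coffee against ND in the 15 fits that left out 1 array and the 11 other alternatives, with log2 differences of 0.58 to 0.68 for Aox1 and 0.74 to 0.88 for Aox3 when an array was left out. The calls for HF against ND were less secure, since without HF replicate 3 the adjusted p was 0.0578 for Aox1 and 0.0590 for Aox3. With the 3' minus 5' value in the model, HF lay above ND by 0.76 for Aox1 (adjusted p = 0.15) and by 1.05 for Aox3 (adjusted p = 0.0410). Over the 15 arrays, the levels of Aox1 and Aox3 had a Pearson r of 0.82 (0.35 after the group means were removed). Of 18192 other genes, the 5 with the highest r to Aox3 over the 15 arrays were Ccdc50 (0.88), Slc33a1 (0.87), C9orf72 (0.87), Sec61b (0.86) and Pdlim2 (0.86), with r from 0.57 to 0.80 within groups. Aox3 was the reference for this description because its group means spanned the widest range of the 10 genes, 1.03. The points of all these correlations share the arrays and their joint normalization.

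**Figure D2:**
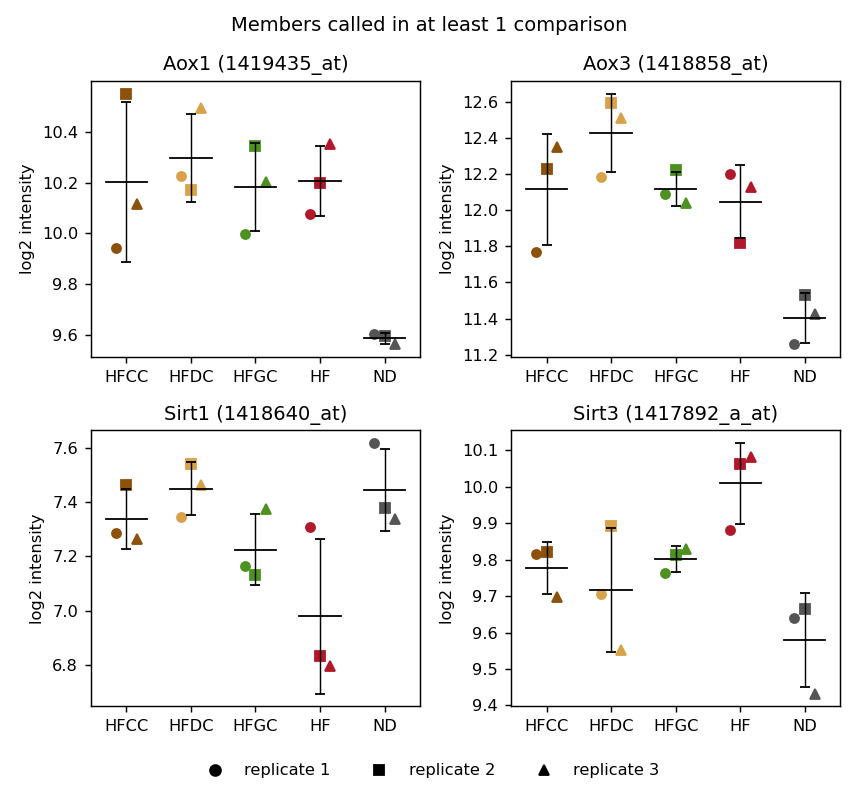
Log2 intensity (y axis) of Aox1, Aox3, Sirt1 and Sirt3 on each of the 15 arrays, arranged by group. Lines and bars give the mean and SD of 3 arrays, and symbols the replicate number. Aox1 and Aox3 are high on all high-fat arrays and low on the ND arrays, and for Sirt1 HF replicates 2 and 3, at 6.83 and 6.80, lie below all other arrays.

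Sirtuins remove acyl groups from proteins and split 1 NAD for each group removed. SIRT1 acts mainly in the nucleus, on transcription factors and histones, and SIRT3 in mitochondria, on metabolic enzymes. Sirt1 lies on chromosome 10 at 63319005 to 63339035 (minus strand), and the 250 bases before its start are shown since it is the member called in both contrasts with HF. The window is chr10:63339036-63339285 on the minus strand (RefSeq, GRCm38.p6), printed 5′ to 3′ along the gene with the same motifs in capitals.
Sirt1: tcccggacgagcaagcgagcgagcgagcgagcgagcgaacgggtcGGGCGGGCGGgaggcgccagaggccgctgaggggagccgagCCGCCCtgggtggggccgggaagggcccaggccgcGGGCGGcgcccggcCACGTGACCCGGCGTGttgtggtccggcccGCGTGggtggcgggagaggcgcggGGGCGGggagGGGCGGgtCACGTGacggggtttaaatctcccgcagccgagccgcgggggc
It held 2 E-boxes, 1 antioxidant core that overlaps the first E-box, 6 GC boxes and 2 xenobiotic cores, and 79.2% of its bases were G or C. An E-box stood in 1 of the 11 start-site windows of the 9 genes, that of Sirt1.

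Sirt1 (1418640_at) had log2 intensities of 7.31, 6.83 and 6.80 in HF livers, against 7.62, 7.38 and 7.34 in ND livers. HF replicate 1 was 7.31 and lay just under the lowest ND array, and HF replicates 2 and 3 were lower than every other array. Sirt1 fell by 0.47 on the log2 scale in HF against ND (standard error 0.12, 0.724-fold, adjusted p = 0.0296 from limma). The coffee arrays were at 7.28, 7.46 and 7.26 with HFCC, 7.35, 7.54 and 7.46 with HFDC, and 7.17, 7.13 and 7.37 with HFGC. All 9 were above HF replicates 2 and 3, and 5 of the 9 were above HF replicate 1. Sirt1 was 0.36 higher in the coffee groups together than in HF, or 1.28-fold (standard error 0.10, adjusted p = 0.0459), and this was the 1 call among the 15 probe sets, with none lower, against 7.24% of all probe sets (2.71% higher and 4.53% lower). None of the 15 probe sets was free of overlap between the coffee and HF arrays, against 7.11% of all probe sets.

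Sirt1 moved with the 3' minus 5' value of the arrays. Its r with that value was -0.72 over the 15 arrays and -0.65 after the group means were removed. It was not alone in this. Within groups the r was -0.82 for Qprt by 1418836_at, -0.79 for Nampt by 1448607_at and -0.70 for Aox3, whose r over the 15 arrays was -0.09. With the value added to the model, the Sirt1 difference was -0.15 for HF against ND (adjusted p = 0.70) and 0.06 for coffee against HF (adjusted p = 0.93). That model called 41 of all probe sets for HF against ND, where the model without the value called 4635. For coffee against HF it called 0, where the model without the value called 3262. The call for coffee against HF was also lost in 11 of the 15 fits that left out 1 array, with adjusted p from 0.00288 to 0.26 over the 15, and without HF replicates 2 and 3 the difference was 0.03. The call for HF against ND was lost without HF replicate 2 (adjusted p = 0.12), without HF replicate 3 (0.12) or without ND replicate 1 (0.0946).

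Sirt3 (1417892_a_at, chromosome 7, 140863663 to 140882309, minus strand) had log2 intensities of 9.88, 10.06 and 10.08 in HF livers, against 9.64, 9.66 and 9.43 in ND livers. The HF arrays were above all ND arrays, and Sirt3 rose by 0.43 or 1.35-fold (standard error 0.09, adjusted p = 0.0116 from limma). It was at 9.81, 9.82 and 9.70 with HFCC, 9.71, 9.89 and 9.55 with HFDC, and 9.76, 9.81 and 9.83 with HFGC. Only 1 of the 9 coffee arrays, HFDC replicate 2 at 9.89, reached the lowest HF array. The coffee groups together had 0.24 less than HF (95% interval from -0.40 to -0.08, adjusted p = 0.0628), which was not called. Sirt3 had an r of 0.56 with the 3' minus 5' value over the 15 arrays and of 0.09 within groups. The HF call was lost without HF replicate 2 (adjusted p = 0.0518), without HF replicate 3 (0.0513) and with the 3' minus 5' value in the model (log2 difference 0.40, adjusted p = 0.24).

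**Figure D3:**
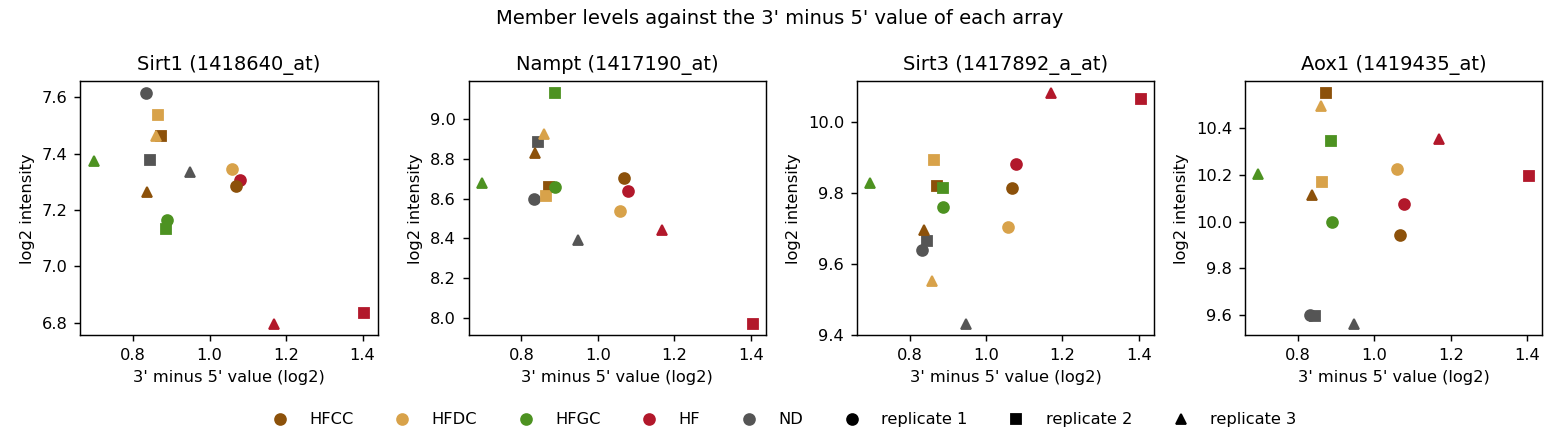
Log2 intensity (y axis) of Sirt1, Nampt, Sirt3 and Aox1 against the 3' minus 5' value of each array (x axis, log2), with colours for groups and symbols for replicate numbers. Sirt1 is lowest on HF replicates 2 and 3, which have the highest 3' minus 5' values of 1.40 and 1.17, Nampt is lowest on HF replicate 2, and Aox1 is lowest on the ND arrays.

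Nampt makes nicotinamide mononucleotide from nicotinamide and sets the rate of the salvage route. It lies on chromosome 12 at 32820335 to 32853369 and had 3 probe sets, none of them called. The brightest, 1417190_at, was at 8.71, 8.66 and 8.83 with HFCC, 8.54, 8.61 and 8.93 with HFDC, 8.66, 9.13 and 8.68 with HFGC, 8.64, 7.97 and 8.44 in HF livers, and 8.60, 8.88 and 8.39 in ND livers. HF replicate 2 stood alone at the low end. The coffee groups together were 0.40 above HF by this probe set (adjusted p = 0.0996) and 0.38 above it by 1448607_at (adjusted p = 0.0798), but 0.06 by 1455320_at (adjusted p = 0.80). For HF against ND the differences were -0.27 by 1417190_at, -0.41 by 1448607_at and -0.23 by 1455320_at (adjusted p from 0.10 to 0.33). The first 2 probe sets named also followed the 3' minus 5' value, with r of -0.71 for 1417190_at and -0.85 for 1448607_at.

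NMNAT enzymes join nicotinamide mononucleotide to the adenylyl group of ATP, NMNAT1 in the nucleus and NMNAT3 in mitochondria. Nmnat1 (chromosome 4, 149467569 to 149485210) was nearly level, with group means of its brighter probe set (1425773_s_at) from 7.05 with HFDC to 7.17 in ND livers. The difference between HF and ND was -0.01 (95% interval from -0.16 to 0.13). By the other Nmnat1 probe set, 1429819_at, it was 0.17 (adjusted p = 0.35), and coffee differed from HF by -0.16 (adjusted p = 0.34). Nmnat3 (1424899_at, chromosome 9, 98287433 to 98420533) was at 6.14, 6.29 and 6.62 in HF livers, against 6.01, 5.99 and 5.94 in ND livers. These arrays did not overlap, and the difference of 0.38 was not called (standard error 0.13, adjusted p = 0.0869). Its coffee arrays ran from 5.81 to 6.37, and the coffee groups together had 0.25 less than HF (adjusted p = 0.20). Its other probe set, 1432342_at, differed by -0.17 between HF and ND (adjusted p = 0.34), opposite in sign to the first.

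Nadsyn1 turns nicotinic acid adenine dinucleotide into NAD, and Qprt turns quinolinic acid into nicotinic acid mononucleotide, where the tryptophan and nicotinic acid routes meet. Nadsyn1 (1430359_a_at, chromosome 7, 143795589 to 143822862) was at 7.11 to 7.48 on the coffee arrays, 7.14 to 7.42 on the HF arrays and 7.32 to 7.48 on the ND arrays, and was not called. Qprt (1418837_at, chromosome 7, 127107770 to 127122029) was at 9.83, 9.77 and 9.92 with HFCC, 9.90, 9.94 and 9.98 with HFDC, 9.72, 9.80 and 10.08 with HFGC, 9.96, 10.10 and 10.20 in HF livers, and 10.14, 10.21 and 10.08 in ND livers. Every coffee array was below the lowest ND array, though HFGC replicate 3 and ND replicate 3 are equal to the second decimal. The coffee groups together had 0.26 less than ND (95% interval from -0.42 to -0.10, adjusted p = 0.0714) and 0.21 less than HF (adjusted p = 0.11), neither called. By the other Qprt probe set, 1418836_at, the coffee groups were 0.17 below ND (adjusted p = 0.31) and 0.04 above HF (adjusted p = 0.83). The r of Nadsyn1 and Qprt over the 15 arrays was 0.74, and 0.81 within groups.

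**Figure D4:**
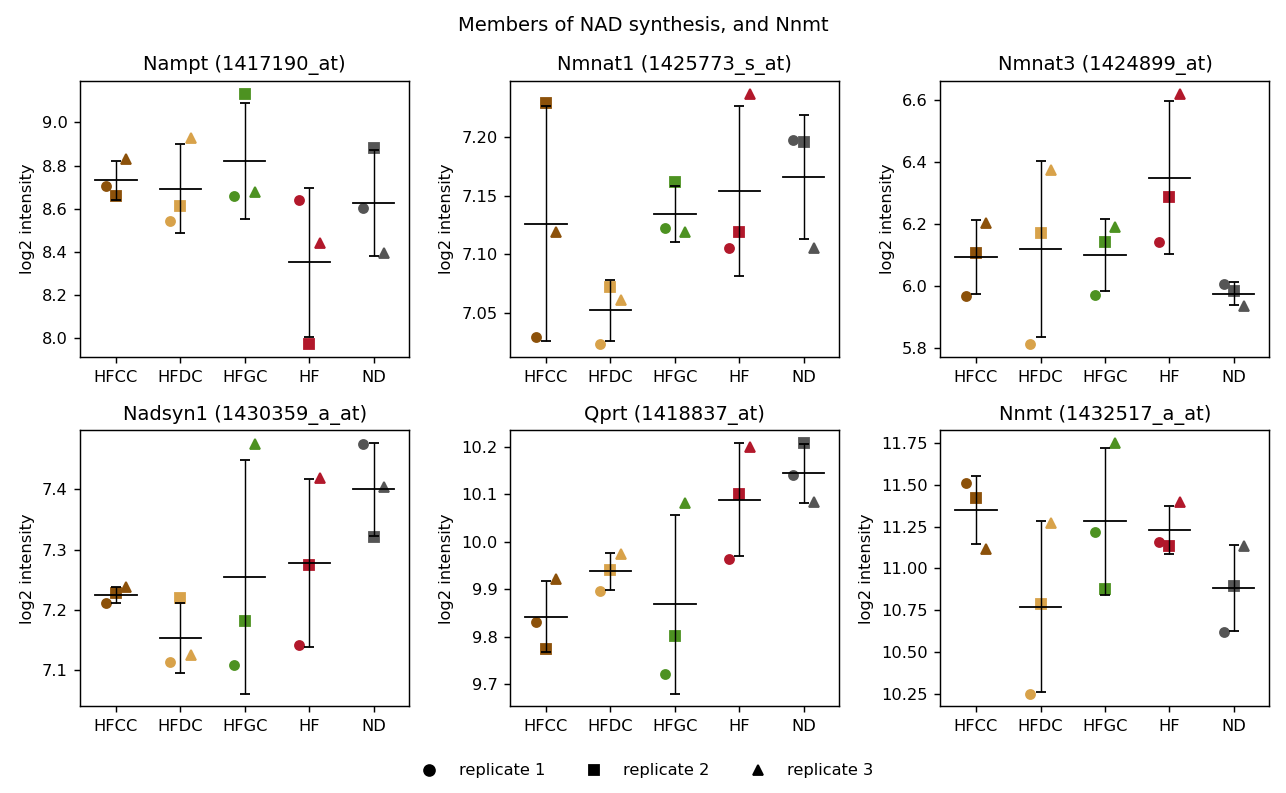
Log2 intensity (y axis) of Nampt, Nmnat1, Nmnat3, Nadsyn1, Qprt and Nnmt by group, each by its brightest probe set, with 1 point for each of the 15 arrays and the mean and SD of 3 arrays as line and bar. None of these was called, and Nnmt spreads most within a group, from 10.25 to 11.28 with HFDC.

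NNMT methylates nicotinamide with S-adenosylmethionine and so ties the clearance of nicotinamide to the supply of methyl groups. Nnmt (1432517_a_at, chromosome 9, 48538002 to 48607655) was at 11.51, 11.42 and 11.12 with HFCC, 10.25, 10.79 and 11.28 with HFDC, and 11.22, 10.88 and 11.75 with HFGC. It was at 11.16, 11.14 and 11.40 in HF livers and 10.62, 10.90 and 11.14 in ND livers. Its spread was the widest of the 10 genes in HFDC and HFGC, with an SD of 0.51 and 0.44 (n = 3 each). HF lay 0.35 above ND (95% interval from -0.15 to 0.85, adjusted p = 0.37). The HF arrays were above the ND arrays only narrowly, since HF replicate 2 and ND replicate 3 are equal to the second decimal.

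Over the 15 probe sets, 6 did not overlap between HF and ND arrays (Nnmt, Nmnat3, Sirt1, Sirt3, Aox1 and Aox3), against 24.6% of all probe sets. The median absolute log2 difference between HF and ND was 0.27 over the 15 and 0.12 over all probe sets tested, and the signed medians were -0.06 and -0.01. These sets differ in level, since 13 of the 15 and 22519 of all 45037 stood at or above the median level. Medians at like levels were not compared.

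Each coffee was also set against HF on its own, and these 3 comparisons share the HF arrays. None of the 15 probe sets was called, against 0.5% of all probe sets in HFCC, 2.72% in HFDC and 2.58% in HFGC, and 5, 4 and 4 of the 15 had an unadjusted p under 0.05, against 15.5%, 19.7% and 18.6% of all probe sets. The nearest to a call was Sirt1 in HFDC, 0.47 above HF (standard error 0.12, adjusted p = 0.0552 from limma), and it was 0.36 above HF in HFCC (adjusted p = 0.16) and 0.24 in HFGC (adjusted p = 0.31). Sirt3 differed from HF by -0.29 in HFDC (adjusted p = 0.0938), -0.23 in HFCC and -0.21 in HFGC. Nampt (1417190_at) was 0.47 higher in HFGC, 0.38 higher in HFCC and 0.34 higher in HFDC, with adjusted p from 0.15 to 0.30.

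The 3 pairs of coffee groups were compared to see whether caffeine or roasting went with a difference in these genes, and none of the 15 probe sets was called. All probe sets tested gave 0.00444% called between HFDC and HFCC, 0.00222% between HFGC and HFCC, and 0% between HFGC and HFDC, with 3342, 1595 and 2582 of them at an unadjusted p under 0.05. Of the 15 probe sets, Nnmt and Aox3 had such a p in a pair. Nnmt was 0.58 lower in HFDC than in HFCC (95% interval of the difference from -1.08 to -0.08, adjusted p = 0.59) and 0.51 higher in HFGC than in HFDC (0.01 to 1.01, adjusted p = 0.85). Aox3 was 0.31 higher in HFDC than in HFCC (95% interval from 0.00 to 0.63, adjusted p = 0.67) and differed by -0.31 between HFGC and HFDC (-0.63 to 0.00, adjusted p = 0.87). Between HFGC, the green coffee, and HFCC, the widest interval was that of Nnmt (-0.57 to 0.43) and the narrowest that of Nmnat1 (-0.14 to 0.15). The wider intervals hold changes of the size called between HF and ND, and the missed thresholds do not show that the coffees act alike.

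The genes around the members were taken from 7 lists of their pathways, in which a gene counts as called when any of its probe sets was. Counted this way over 18193 genes, 2001 rose and 1342 (7.38%) fell in HF against ND, and 950 (5.22%) rose and 1545 (8.49%) fell in the coffee groups together against HF, so counts of 1 or 2 genes per list are read as a description. In the kynurenine route from tryptophan to NAD, 2 of 7 measured genes rose in HF against ND and none fell. The list median was 0.20 over the brightest probe set of each gene. The median of -0.01 over all probe sets tested also takes in dim ones, so the 2 are not of like sets. Afmid, which removes formate from formylkynurenine, averaged 10.44 ± 0.10 in HF livers and 10.00 ± 0.15 in ND livers (SD, n = 3 each, 1452944_at), a rise of 0.44 (adjusted p = 0.0195). It was at 9.99 ± 0.12 in the HFDC group, 0.45 below HF (adjusted p = 0.0411), and at 10.46 ± 0.11 in HFCC and 10.42 ± 0.19 in HFGC. Of 4 Afmid probe sets, 1452944_at and 1428885_at were called in both comparisons, and 1431722_a_at and 1447638_at in neither (0.15 and 0.01 for HF against ND, -0.34 and 0.09 for HFDC against HF). The HFDC call of 1452944_at was lost with cyclic loess (adjusted p = 0.0706) and with the replicate block (0.0574). Haao, which makes the precursor of the quinolinic acid that Qprt uses, averaged 11.90 ± 0.14 in HF livers and 11.46 ± 0.14 in ND livers, a rise of 0.44 (adjusted p = 0.0160). Against HF it fell by 0.29 with coffee, all 3 groups pooled (adjusted p = 0.0466). Tdo2, the first enzyme of the route in liver, differed by -0.26 between HF and ND and was not called by 1419093_at (adjusted p = 0.0827) or by its other 2 probe sets (0.08 and -0.06).

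**Figure D5:**
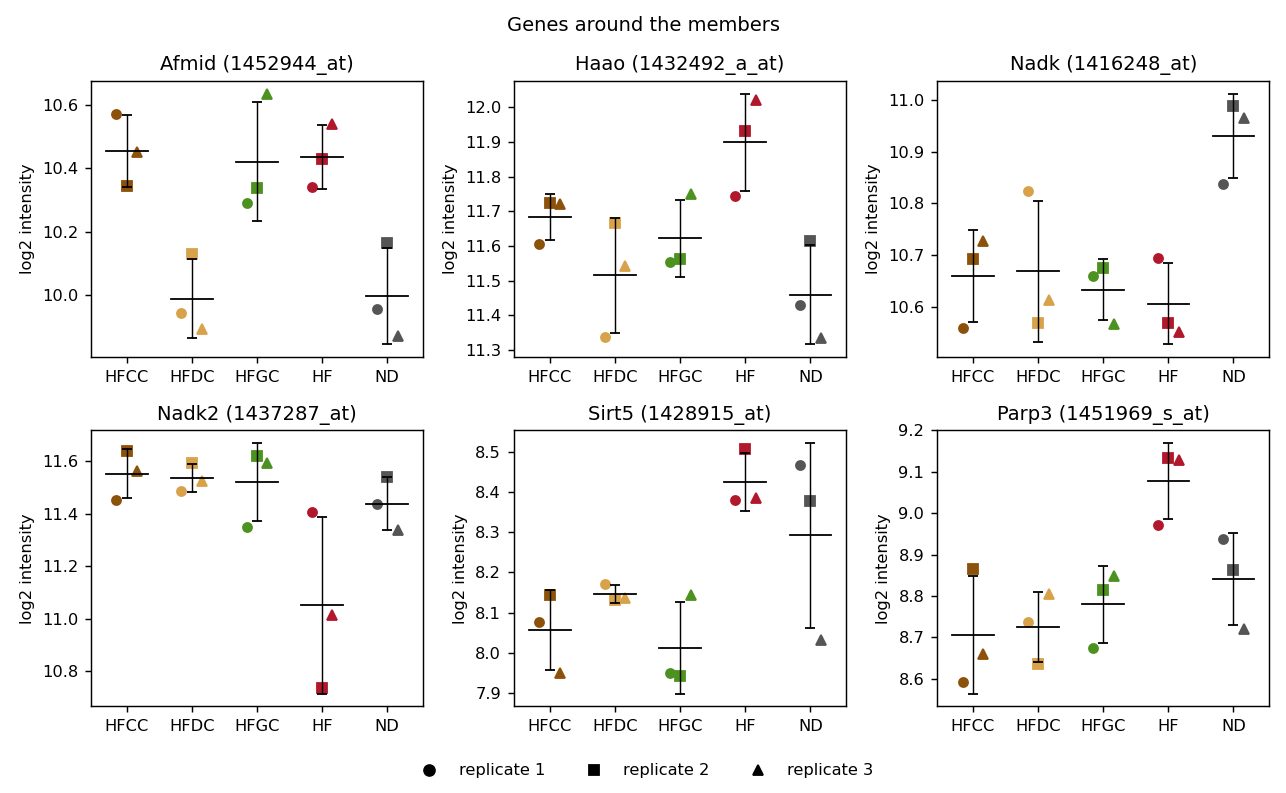
Log2 intensity (y axis) of Afmid, Haao, Nadk, Nadk2, Sirt5 and Parp3 by group, each by its brightest probe set, with 1 point for each of the 15 arrays and the mean and SD of 3 arrays as line and bar. Afmid is low in the HFDC and ND groups, with means of 9.99 and 10.00, and Nadk has its highest levels on the ND arrays.

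Of the 4 genes for the NAD kinases, the transhydrogenase and the mitochondrial NAD carrier, 2 fell in HF against ND and none rose. Over all genes, 7.38% fell in that comparison. These 4 genes have 12 probe sets, and a gene with more probe sets has more ways to be called. Nadk, the cytosolic kinase that makes NADP from NAD, averaged 10.61 ± 0.08 in HF livers and 10.93 ± 0.08 in ND livers and fell by 0.33 (adjusted p = 0.0226). It stayed 0.28 below ND in the coffee groups together (adjusted p = 0.0366), with all 9 coffee arrays under the ND arrays. This call was lost with the replicate number as a block (adjusted p = 0.0542) and when ND and the coffee groups were fitted alone (0.0506), and by the other Nadk probe set, 1416249_at, the differences were -0.12 for HF and -0.04 for coffee against ND, neither called. Nnt, which moves hydride between NADH and NADP in mitochondria and is truncated in this strain, fell by 0.43 in HF by 1416105_at (adjusted p = 0.0327). Its other probe sets, 1456573_x_at and 1432608_at, differed by -0.01 and 0.10 and were not called. Nadk2, the mitochondrial kinase, was 0.48 higher in the coffee groups together than in HF by 1437287_at (adjusted p = 0.0170), and its HF arrays spread from 10.73 on replicate 2 to 11.41 on replicate 1. The other 3 Nadk2 probe sets were 0.11 to 0.54 higher and were not called.

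Among the 5 other sirtuins none was called for HF against ND. Sirt5, a mitochondrial sirtuin that removes succinyl and related groups, averaged 8.06 ± 0.10 in HFCC, 8.15 ± 0.02 in HFDC, 8.01 ± 0.11 in HFGC, 8.42 ± 0.07 in HF and 8.29 ± 0.23 in ND livers (SD, n = 3 each). Against HF, the fall was 0.35 over the coffee groups (adjusted p = 0.0214) and 0.41 in HFGC alone (adjusted p = 0.0440), with all coffee arrays below the HF arrays. These values are of 1428915_at, and the other Sirt5 probe sets, 1428916_s_at and 1432105_at, were not called, at -0.13 and -0.05 over the coffee groups and -0.16 and -0.02 in HFGC. The HFGC call was also lost with cyclic loess (adjusted p = 0.0577), with the replicate block (0.0541) and with HFGC and HF fitted alone (0.0784). Of 6 other NAD consumers measured, Parp1 and Parp3, which build ADP-ribose on proteins from NAD, fell in the coffee groups together against HF. Over all genes, 8.49% fell in that comparison. Parp3 fell by 0.34 by 1451969_s_at (adjusted p = 0.0158) and by 0.35 by 1426210_x_at (adjusted p = 0.0245), and differed by -0.14 by 1445888_x_at, which was not called. Parp1 fell by 0.23 by 1435368_a_at (adjusted p = 0.0210), which had risen by 0.35 in HF against ND (adjusted p = 0.00584), while the brighter Parp1 probe set, 1422502_at, was not called and differed by -0.02 in HF against ND and by 0.13 in coffee against HF.

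Aldehyde oxidases need a sulfurated molybdenum cofactor, and Mocos is the enzyme that adds the sulfur. Of 8 measured genes of other aldehyde oxidases, xanthine oxidase and this cofactor, 1 rose and 1 fell in HF against ND. Mocos averaged 9.51 ± 0.11 in HF livers and 9.23 ± 0.04 in ND livers (SD, n = 3 each), a rise of 0.28 (adjusted p = 0.0290). Against HF it fell by 0.24 over the coffee groups (adjusted p = 0.0287), and it averaged 9.24 to 9.29 in the 3 coffee groups. Gphn, which inserts the molybdenum, fell by 0.54 in HF by 1430038_at (adjusted p = 0.0374) and rose by 0.59 with coffee by another probe set, 1426463_at (adjusted p = 0.0305), while its brightest, 1426462_at, differed by 0.07 and 0.05 in these comparisons. Aox4, a further aldehyde oxidase of the chromosome 1 cluster, had group means of 3.41 to 3.60 and was not called. Xdh, the related xanthine oxidase, had group means of 9.79 to 9.92 and was not called.

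The methyl donor cycle supplies the methyl groups that Nnmt uses, and its list also holds genes that spend them. In HF against ND, 2 of the 10 measured genes rose and none fell, against 2001 higher and 1342 lower of 18193 genes. The 2 that rose, Gamt and Pemt, spend methyl groups as Nnmt does. No other measured gene of the list was called in that comparison. Gnmt, the glycine methyltransferase of the list, also spends methyl groups and averaged 13.89 in HF and 13.71 in ND livers. Nnmt was not called either. Gamt, which methylates guanidinoacetate to creatine, averaged 10.18 ± 0.10 in HF livers and 9.03 ± 0.64 in ND livers (SD, n = 3 each) and rose by 1.15 (adjusted p = 0.00470). The ND arrays were spread out at 9.09, 9.63 and 8.36. With coffee, Gamt was 0.98 above ND (adjusted p = 0.00731), or 0.64 without ND replicate 3. Pemt, which methylates phosphatidylethanolamine, rose by 0.27 in HF (adjusted p = 0.0132) and was 0.22 above ND in the coffee groups pooled (adjusted p = 0.0277). It averaged 10.89 ± 0.03 in HFCC and 10.95 ± 0.01 in HFGC. In HFDC it was near the ND level, at 10.68 ± 0.06 against 10.62 ± 0.04. The regulatory subunit gene Mat2b was 0.42 higher in HFDC than in HF (adjusted p = 0.0393). Of 5 further genes of the Preiss-Handler and salvage routes, none was called for HF against ND. Nmrk1, the nicotinamide riboside kinase, was lower with HFGC than with HF by 1448048_at, by 0.65 (adjusted p = 0.0241), while its brighter probe set, 1425646_at, differed by -0.15 (adjusted p = 0.71).

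The calls of these pathway genes were fitted again without each array in turn. For HF against ND, 3 of the 10 called probe sets kept their call in all 15 fits, those of Gamt, Afmid (1428885_at) and Parp1 (1435368_a_at). None of the 10 was called with the 3' minus 5' value in the model, where Gamt was 1.35 above ND (adjusted p = 0.11), and none when HF and ND were fitted without the other groups (adjusted p from 0.0614 to 0.13). Over all probe sets, these 2 settings called 41 and 795, against 4635 without them. For coffee against HF, all 9 called probe sets lost their call without HF replicate 2 and again without HF replicate 3, as did the 5 called in HFDC and the 2 called in HFGC against HF, and none of these was called with the 3' minus 5' value in the model. Of all 45037 probe sets, these 3 settings called 4, 204 and 0 for coffee against HF, against 3262 without them. For HFDC against HF they called 3, 3 and 0, against 1227. In these 2 comparisons the loss is thus not particular to the pathway genes. Cyclic loess ended the calls of Mocos for HF against ND (adjusted p = 0.0751) and of Mocos (0.0829), Haao (0.0605) and Parp1 (0.0613) for coffee against HF. The calls of coffee against ND (Gamt, Nadk and Pemt) use the HF arrays for the shared spread alone, and all 3 held with that value in the model. Gamt kept its call in all 15 fits, Pemt lost it without any 1 of the ND arrays (adjusted p up to 0.0997), and Nadk lost it in 9 of the 15 (adjusted p up to 0.12).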

How the data were processed

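The authors labelled liver RNA, hybridised 1 array per mouse and deposited RMA-normalized intensity values on a linear scale (software version not given in the sources used here). Log2 was taken here, with no further normalization. Groups and replicate numbers came from the labels. An annotation of the platform gave 34958 of 45101 probe sets 1 gene symbol, 34754 of them matched to RefSeq (GRCm38.p6) by gene ID, and 64 control probe sets were left out.

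All 45037 other probe sets were fitted in R 4.3.3 with limma 3.58.1 (lmFit, contrasts.fit and eBayes, 5 group means, 15 arrays, 10 residual degrees of freedom), with 9 contrasts and Benjamini-Hochberg adjustment within each. The fit was tested on simulated data. By rule, all 10 genes were described by every probe set, with array values for the brightest (the highest mean over the arrays) and for any called one, and of the 7 pathway lists the called genes and the others with the largest differences, of which fewer are named here. The genes and lists were chosen with earlier results of these data known. Acmsd, Cd38, Aox2, Mat2a, Cfd and Plin1 were on the lists and are not analysed here, having no probe set annotated to them alone. Alternatives were 11 settings and leaving out each of the 15 arrays, and 1 more, HF replicate 1 as the only HF array, was added after the data were seen, as was running them all on the called pathway genes. The limma p-values set a difference against the spread between mice within groups. That spread is pooled over the 5 groups of 3 mice and moderated across all probe sets (15.1 total degrees of freedom).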

Additional observations from a re-analysis of the deposited data

How the results depend on the processing

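For HF against ND, 4 probe sets of the 10 genes were called. There were 2 when they also had to differ by at least 1.5-fold, 2 when only the groups compared were fitted (Sirt1 adjusted p = 0.13 and Sirt3 0.0690), 1 (Aox3) with the 3' minus 5' value in the model, and 0 with HF replicate 1 as the only HF array, a setting chosen after the data were seen. Leaving out 1 array gave 0 (without HF replicate 3) to 6 (without HF replicate 1). The calls over all 45037 probe sets moved as well. They were 4635 for HF against ND, 914 with at least 1.5-fold, 795 with only the groups compared and 41 with the 3' minus 5' value. Without HF replicate 3 they were 1814, and without HF replicate 1 they were 5560. For coffee against HF, the 1 call became 4 at an adjusted p under 0.10 and 2 among probe sets at or above the median level. It became 0 with an offset of 32 before log2, with at least 1.5-fold as well, with the 3' minus 5' value in the model and with HF replicate 1 as the only HF array, and ranged from 0 to 4 when 1 array was left out. Over all probe sets, 3262 were called for coffee against HF, 5624 at an adjusted p under 0.10, 334 with at least 1.5-fold and 0 with the 3' minus 5' value. Leaving out 1 array gave 4 to 4826, and the offset gave 3482. At or above the median level, 3846 of 22519 probe sets were called, with 2 of the 13 from these genes. For HFDC against HF, 0 became 1 with 1 probe set per gene, with cyclic loess and among probe sets at or above the median level, and 2 at an adjusted p under 0.10, with 0 to 2 when 1 array was left out. All probe sets gave 1227 calls there, and 3 to 3460 when 1 array was left out. The calls were 913 of 18193 with 1 probe set per gene, 798 with cyclic loess and 3231 at an adjusted p under 0.10. At or above the median level, 1946 of 22519 were called. For HFCC and HFGC against HF, the count among the 15 was 0 to 1 when 1 array was left out. For coffee against ND it was 2 to 3, and the 3 pairs of coffee groups stayed at 0 throughout.

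With the replicate number as a block, 5 were called for HF against ND (Nmnat3 added, adjusted p = 0.0352), 0 for coffee against HF (Sirt1 adjusted p = 0.0584) and 2 for coffee against ND. Over all probe sets, the block gave 4331, 2896 and 1392 calls in these comparisons. The labels tie the numbers to no shared litter or batch. Between groups, deviations from the group means correlated over 0.1 in 6 of 30 pairs of same-numbered arrays (r from -0.28 to 0.22, median 0.04). The same held in 8 of 60 pairs with other numbers (r from -0.22 to 0.30, median -0.02). Whether same-numbered arrays shared a litter or batch was not tested. No called difference of the 10 genes reversed its sign under these alternatives. Of the called pathway probe sets, 1426463_at of Gphn reversed for coffee against HF with the 3' minus 5' value in the model (log2 difference -0.017, adjusted p = 0.98). With 3 arrays per group and no detection calls, dim probe sets such as 1448607_at of Nampt and 1432342_at of Nmnat3 may lie near background, which was not tested.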
